A study of Mus musculus with 16 samples.

Results

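The genes described here encode the ligands, antagonists, receptors and SMAD proteins of bone morphogenetic protein (BMP), activin, inhibin, Nodal and transforming growth factor beta (TGF-beta) signalling. They were chosen by gene symbol, and 38 of the 16383 genes in the expression table matched. By role they were 7 BMP ligands, 3 TGF-beta ligands, 3 activin and inhibin subunits, 2 Nodal antagonists, 3 other secreted antagonists, 1 protease, 6 type 1 receptors, 4 type 2 receptors, 1 co-receptor and 8 SMADs. Grem1, Nodal, Tdgf1, Bmp3, Bmp10, Bmp15 and Acvr1c were not analysed here.

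Ligands of this superfamily are dimers that bring type 2 and type 1 receptor kinases together. The type 1 kinase then phosphorylates receptor SMADs: SMAD1, SMAD5 and SMAD9 on the BMP side, SMAD2 and SMAD3 on the activin and TGF-beta side. These bind the common SMAD4 and enter the nucleus, while SMAD6 and SMAD7 inhibit the relay. In the testis, activin and inhibin are classical products of Sertoli cells, BMP4 is known as a factor acting on differentiating spermatogonia, and TGF-beta ligands are made by several somatic cell types.

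The libraries came from undifferentiated spermatogonia, the mitotic germ cells that include the stem cells of the testis, sorted by flow cytometry from adult mice. All mice had received busulfan, an alkylating drug toxic to dividing germ cells, at 10 mg/kg, and cells were collected on day 10. From day 3, mice were injected daily for 7 days with PD0325901, an inhibitor of the ERK-activating kinases MEK1 and MEK2, at 2.5 mg/kg, or with vehicle containing 10% DMSO. The 4 groups of 4 libraries were wild type with vehicle, wild type with PD0325901, and a germline knockout of Spry4 with vehicle or with PD0325901. The knockout is titled Spry4 G-KO, and Spry4 encodes a feedback inhibitor of signalling to ERK. Column names carry Spry4ff for the wild type and GCRT_Spry4KO for the knockout, and those of the inhibitor libraries carry PD8. The sources used here do not give what PD8 or GCRT stands for, the driver of any recombinase, the part of Spry4 removed or the markers of the sort. Loss of Spry4 and anything else that only the knockout mice carry cannot be told apart.

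Spry4 stood at 22.6, 23.8, 21.9 and 19.9 FPKM in wild type with vehicle, 15.9, 19.6, 27.4 and 23 in wild type with PD0325901, 12, 10.1, 7.28 and 14.7 in Spry4 G-KO with vehicle, and 13, 8.23, 11 and 19.3 in Spry4 G-KO with PD0325901. Knockout libraries thus kept Spry4 transcripts, and the genotypes did not overlap under vehicle but did under PD0325901. In each library 12257 to 12805 genes reached 1 FPKM (a read level per kilobase of gene that takes library size into account). Summed FPKM of 12 undifferentiated spermatogonial markers ran from 497 to 793. The sum of 11 contractile genes of peritubular myoid and smooth muscle cells (Acta2, Myh11 and others) ran from 1205 to 12301, and its range overlapped between all groups. Acta2 alone ranged from 367 to 5095 FPKM. In both knockout groups the libraries ranked alike by Spry4 and by the contractile sum. In wild type with PD0325901 the 2 rankings differed only by an exchange of replicates 1 and 2. They differed more in wild type with vehicle. Which cells held the Spry4 transcripts of the knockout libraries was not tested. Endothelial markers summed to 27.4 to 88.8 FPKM. The highest means among them were 26.1 FPKM for Esam and 14.8 for Eng, with Cdh5 next at 2.56. Sertoli markers summed to 7.18 to 22.0 FPKM, with 3 of 8 listed Sertoli genes under 1 FPKM in every library. Spermatid markers stood apart in replicate 3 of Spry4 G-KO with vehicle, where they summed to 2918 FPKM, against 17.6 to 147 in the other 15 libraries. In such bulk samples fewer cells of a type and less RNA per cell cannot be told apart. The labels do not say that replicates were separate animals, though each column name carries its own SP number. The p-values below thus rest on the spread between libraries, which may be technical.

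Of the 38 genes, 30 reached 1 FPKM in at least 4 libraries and were tested, and the other 8 were under 1 FPKM in every library. The mean over 16 libraries was at least 10 FPKM for 13 genes, 5 to 10 FPKM for 7 and 1 to 5 FPKM for 10. All 38 matched a gene model of the GENCODE M21 annotation of mouse build GRCm38. There Smad6 (ENSMUSG00000036867) lies at chr9:63953076-64022059, Tgfbr1 (ENSMUSG00000007613) at chr4:47353222-47414931, Tgfb3 (ENSMUSG00000021253) at chr12:86056745-86079041, Bmp6 (ENSMUSG00000039004) at chr13:38345107-38500302 and Inhba (ENSMUSG00000041324) at chr13:16011851-16031621. In that annotation 13 of the 38 have an exon of another gene over their own exons, 11 on the opposite strand (Bmp6 with Txndc5 and Acvr2a with Orc4 among them) and 2 on the same strand. The sources used here do not give whether the counting used strand, so reads of such pairs are uncertain.

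**Figure D1:**
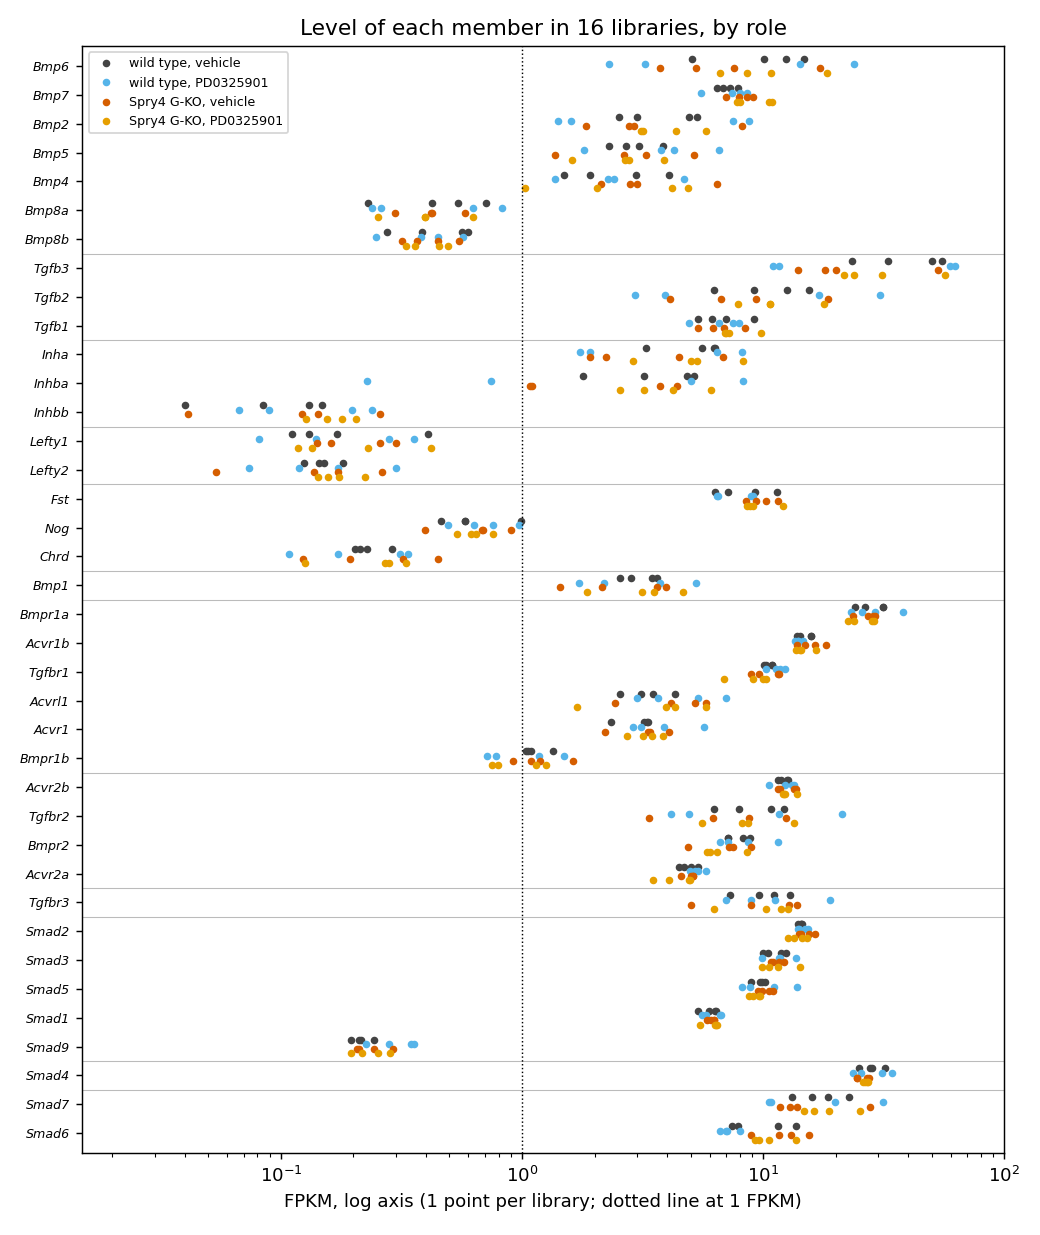
FPKM (log axis) of the 38 genes in each of 16 libraries, 1 point per library and 1 colour per group, with genes ordered by role from ligands at the top to SMADs at the bottom. Receptor SMADs above 1 FPKM, Smad4 and the receptors Acvr1b, Acvr2a, Acvr2b, Bmpr1a and Tgfbr1 form tight clusters. Bmp6, Bmp2, Tgfb2, Tgfb3, Inha, Inhba and Tgfbr2 spread widely within groups, and 8 genes lie left of the dotted 1 FPKM line.

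Among BMP ligands, Bmp6 (mean level 10.3 FPKM) and Bmp7 (7.99 FPKM) had the highest levels, followed by Bmp2 (4.20), Bmp5 (3.24) and Bmp4 (2.98). Both Bmp7 and Bmp6 encode ligands of the BMP type 1 receptors. Bmp6 stood at 5.06, 12.5, 14.7 and 10.1 FPKM in wild type with vehicle, 3.24, 2.3, 23.9 and 14.2 in wild type with PD0325901, 7.6, 5.26, 3.75 and 17.1 in Spry4 G-KO with vehicle, and 8.57, 6.61, 10.7 and 18.5 in Spry4 G-KO with PD0325901. Each vehicle or inhibitor group held both low and high libraries, so the groups overlapped over most of their range. Bmp7 stood at 7.85, 6.43, 7.29 and 6.81 FPKM in wild type with vehicle, 8.02, 8.61, 5.51 and 7.4 in wild type with PD0325901, 6.99, 9.05, 8.6 and 7.92 in Spry4 G-KO with vehicle, and 7.99, 10.9, 10.6 and 7.76 in Spry4 G-KO with PD0325901. Bmp7 varied 1.98-fold from its lowest to its highest library, against 10.4-fold for Bmp6. Bmp4, a ligand known to act on differentiating spermatogonia, ranged from 1.03 to 6.46 FPKM, with both extremes in the knockout. Bmp8a and Bmp8b, near-identical neighbours whose reads may be split between them, ran from 0.231 to 0.825 and from 0.248 to 0.599 FPKM, below the tested range.

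Tgfb3 was the most abundant of all 38 genes, at a mean of 34.1 FPKM. It encodes a TGF-beta ligand, as do Tgfb2 (mean 11.5 FPKM) and Tgfb1 (7.03 FPKM). Tgfb3 stood at 23.5, 50.4, 55.2 and 32.9 FPKM in wild type with vehicle, 11.6, 11, 59.5 and 62.5 in wild type with PD0325901, 20.0, 18.1, 14 and 53.3 in Spry4 G-KO with vehicle, and 23.8, 21.7, 31 and 56.6 in Spry4 G-KO with PD0325901. The lowest and the highest of the 16 values were both in wild type with PD0325901. Tgfb2 stood at 6.27, 12.5, 15.6 and 9.13 FPKM in wild type with vehicle, 3.91, 2.94, 30.6 and 17.1 in wild type with PD0325901, 9.3, 6.68, 4.12 and 18.6 in Spry4 G-KO with vehicle, and 10.7, 7.9, 10.6 and 17.9 in Spry4 G-KO with PD0325901. Tgfb2 was likewise lowest and highest in wild type with PD0325901, with a 10.4-fold range, whereas Tgfb1 ranged 2.0-fold, from 4.91 to 9.81 FPKM.

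The activin and inhibin subunits were lower. Inhba encodes the beta A chain of activin and inhibin, Inha the alpha chain that makes the dimer an inhibin, and Inhbb the beta B chain. Inhba stood at 1.79, 5.14, 4.81 and 3.22 FPKM in wild type with vehicle, 0.744, 0.228, 8.24 and 5.04 in wild type with PD0325901, 3.74, 1.08, 1.1 and 4.4 in Spry4 G-KO with vehicle, and 4.24, 3.2, 2.54 and 6.08 in Spry4 G-KO with PD0325901. Its 36.1-fold range was the widest of the 38 genes, and the 2 libraries under 1 FPKM were replicates 1 and 2 of wild type with PD0325901. Inha ranged from 1.74 to 8.22 FPKM, and Inhbb from 0.0402 to 0.259 FPKM.

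Secreted antagonists were low except follistatin. Fst, which binds and neutralises activin, ranged from 6.30 to 12.1 FPKM with a mean of 8.96 FPKM. Noggin (Nog), a BMP trap, had a mean of 0.669 FPKM, chordin (Chrd) 0.247 FPKM, and the Nodal antagonists Lefty1 and Lefty2 had 0.215 and 0.162 FPKM. Bmp1, named as a BMP but encoding a protease that cleaves procollagen and chordin, ranged from 1.43 to 5.26 FPKM.

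Receptors of both branches were present. Of the type 1 receptors, Bmpr1a (a BMP receptor) had the highest mean level at 27.6 FPKM, followed by Acvr1b (activin, 14.9 FPKM) and Tgfbr1 (TGF-beta, 10.4 FPKM). Acvrl1 (4.11 FPKM), Acvr1 (3.38 FPKM) and Bmpr1b (1.09 FPKM) were lower, and Acvrl1, known for its role in endothelial cells, ranged 4.17-fold. Of the type 2 receptors, Acvr2b (12.4 FPKM) and Tgfbr2 (9.10 FPKM) were above Bmpr2 (7.56 FPKM) and Acvr2a (4.89 FPKM). The receptors differed in how far they ranged over the 16 libraries. Acvr2b, an activin receptor, ranged 1.30-fold from 10.6 to 13.8 FPKM, whereas Tgfbr2, the TGF-beta type 2 receptor, ranged 6.29-fold from 3.36 to 21.2 FPKM. The TGF-beta co-receptor Tgfbr3, or betaglycan, ranged from 5.01 to 18.9 FPKM.

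Except Smad9, the receptor SMADs of both branches had mean levels between 6.11 and 14.5 FPKM. Smad2 (mean 14.5 FPKM) and Smad3 (11.5 FPKM) carry activin and TGF-beta signals, and Smad5 (9.92 FPKM) and Smad1 (6.11 FPKM) carry BMP signals. Smad9, the remaining BMP SMAD, was under 1 FPKM everywhere, from 0.195 to 0.356 FPKM. Over all 16 libraries Smad1 ranged 1.25-fold, Smad2 1.29-fold, Smad3 1.44-fold, Smad5 1.68-fold and the common Smad4 1.45-fold, with Smad4 at a mean of 27.4 FPKM. The inhibitory SMADs varied more, at 2.33-fold for Smad6 and 2.96-fold for Smad7.

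The first comparison asked what loss of Spry4 in the germline did under vehicle. None of the 30 tested genes passed the test in either direction (limma with Benjamini-Hochberg adjustment over the 12907 genes tested, threshold 0.05), against a background of 0% of all genes. At an unadjusted p under 0.05 there were 251 of all genes (1.94%) and 0 of the 30. Limma with voom weights on recovered reads also called 0. The median log2 difference of the 30 was -0.03, with 14 above 0 and 16 below, and that of all genes was -0.01. All log2 differences are of log2(FPKM + 0.5), which understates differences of low genes. The largest estimates were -0.73 for Tgfb3 (standard error 0.59), -0.57 for Inhba (0.67) and -0.54 for Inha (0.47), each about as large as its standard error or little more. Leaving out 1 library gave -1.13 to -0.50 for Tgfb3, -0.86 to -0.31 for Inhba and -0.83 to -0.30 for Inha, each most negative without replicate 4 of the knockout with vehicle. With the contractile and spermatid marker levels as terms, these 3 differences were -0.26, -0.05 and -0.18. That fit gave 538 of all genes and 1 of the 30 (Smad5) an unadjusted p under 0.05, and leaving out 1 library gave 117 to 391 genes and 0 to 2 of the 30. In none of the 30 did all 4 knockout libraries lie above, or all below, the 4 wild-type libraries, as they did for 1.46% of all genes.

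Under PD0325901 the same comparison of genotypes also called none of the 30 (limma, background 0%), and voom called 0. At an unadjusted p under 0.05 there were 605 of all genes (4.69%) and 4 of the 30. Those 4 were Smad6, Tgfbr1, Acvr2a and Bmp7. If no gene differed, a share of about 0.05 of genes would have such a p. The unadjusted counts depended on single libraries. They were 262 genes and 1 of the 30 without replicate 4 of the knockout with PD0325901, 304 and 3 without its replicate 3, and 944 and 5 without its replicate 1. With only the 2 groups compared in the fit they were 375 and 2. The median difference was 0.01 over the 30 and -0.01 over all genes. Inhba had the largest estimate, 0.75 with a standard error of 0.67. It was 0.14 without replicate 2 and 1.34 without replicate 3 of wild type with PD0325901, and 0.12 with the marker levels as terms.

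With the contractile and spermatid levels as terms, this comparison gave 2230 of all genes (17.3%) and 9 of the 30 an unadjusted p under 0.05. It still called none (lowest adjusted p of the 30 = 0.159, limma). The 9 were Bmp7, Fst and Smad6, higher in the knockout, and Smad4, Smad5, Acvr2a, Tgfbr1, Tgfbr2 and Bmpr2, lower. The median of the 30 was then -0.14, with 10 above 0 and 20 below, and that of all genes was -0.05.

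Smad6, which encodes an inhibitor mainly of BMP signalling, and Tgfbr1, the TGF-beta type 1 receptor, were the 2 of 30 genes (6.67%) whose libraries did not overlap between genotypes under PD0325901. This was so for 2.28% of all genes. Smad6 stood at 7.85, 7.43, 11.5 and 13.7 FPKM in wild type with vehicle, 6.65, 8.02, 7.09 and 7.02 in wild type with PD0325901, 8.92, 11.6, 13.1 and 15.5 in Spry4 G-KO with vehicle, and 9.61, 10.6, 9.27 and 13.7 in Spry4 G-KO with PD0325901. All 4 knockout libraries given PD0325901 were above all 4 wild-type ones, while under vehicle the genotypes overlapped. Group means in the same order were 10.1 ± 3.02, 7.20 ± 0.585, 12.3 ± 2.75 and 10.8 ± 2.0 FPKM (SD, n = 4). The log2 difference under PD0325901 was 0.54 (standard error 0.19, unadjusted p = 0.0149, adjusted p = 0.988, limma), and 0.42 to 0.60 when any 1 library was left out. It was 0.47 (standard error 0.20) with the contractile and spermatid levels as terms. Under vehicle the Smad6 difference was 0.28 (standard error 0.19), and 0.16 to 0.44 with 1 library left out, the lowest without replicate 2 and the highest without replicate 4 of wild type with vehicle. The interaction, which tests whether these 2 differences differ, was 0.25 (standard error 0.27). It was 0.10 without replicate 4 and 0.38 without replicate 2 of wild type with vehicle. Tgfbr1 stood at 10.1, 10.9, 10.3 and 10.8 FPKM in wild type with vehicle, 11.3, 10.3, 12.3 and 11.7 in wild type with PD0325901, 9.63, 11.7, 11.6 and 8.89 in Spry4 G-KO with vehicle, and 10.3, 9.98, 9.12 and 6.87 in Spry4 G-KO with PD0325901. The genotypes were barely apart under PD0325901, with 10.28 FPKM in the highest knockout library and 10.29 FPKM in the lowest wild-type library. The lowest Tgfbr1 library, replicate 4 of the knockout with PD0325901, had the second highest contractile level of the 16. The highest Tgfbr1 library, replicate 3 of wild type with PD0325901, had the highest contractile level. Tgfbr1 was lower in the knockout under PD0325901 by a log2 difference of -0.33 (standard error 0.12, unadjusted p = 0.0140, adjusted p = 0.988, limma), against -0.02 under vehicle, with an interaction of -0.31 (standard error 0.17). Leaving out 1 library gave -0.39 to -0.21, the smallest difference being without replicate 4 of the knockout with PD0325901. With the marker levels as terms it was -0.32 (standard error 0.12).

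Acvr2a and Bmp7 differed less cleanly. Acvr2a stood at 4.7, 5.36, 4.49 and 5.04 FPKM in wild type with vehicle, 5.34, 5.23, 5.82 and 4.95 in wild type with PD0325901, 5.12, 5.02, 5.1 and 4.55 in Spry4 G-KO with vehicle, and 5.0, 4.93, 4.08 and 3.49 in Spry4 G-KO with PD0325901. Replicates 3 and 4 of the knockout with PD0325901 were the lowest of the 16, and replicate 1 lay above the lowest wild-type library given PD0325901, for a difference of -0.27 (standard error 0.10), which was -0.18 without replicate 4 of the knockout. Bmp7 differed by 0.32 (standard error 0.14) under PD0325901 and by 0.18 (0.14) under vehicle, again with overlap. The first was 0.19 without replicate 3 of wild type with PD0325901 and 0.44 (standard error 0.10) with the marker levels as terms.

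**Figure D2:**
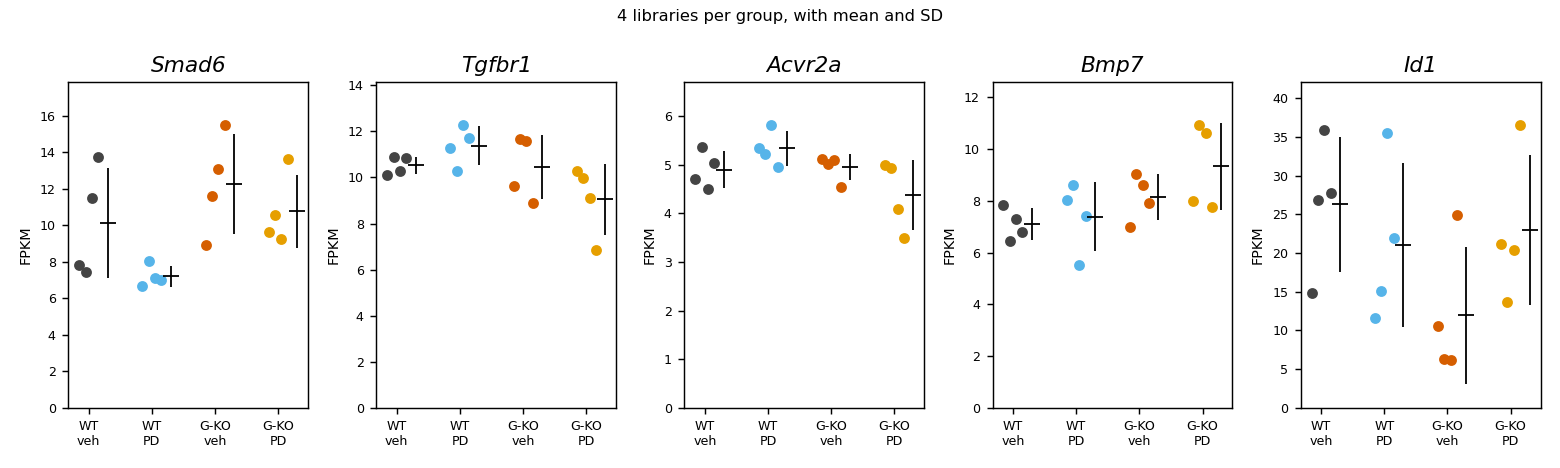
FPKM (linear axis from 0) of Smad6, Tgfbr1, Acvr2a, Bmp7 and the BMP target Id1 in 4 libraries per group, with the mean and SD beside the points (WT, wild type; G-KO, Spry4 germline knockout; veh, vehicle; PD, PD0325901). Under PD0325901 the knockout libraries of Smad6 (9.27 to 13.7 FPKM) lie above the wild-type ones (6.65 to 8.02 FPKM), and those of Tgfbr1 lie below.

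The next comparisons asked what the MEK inhibitor did in each genotype. In wild type, limma called none of the 30 (background 0%) and voom called 0. An unadjusted p under 0.05 was found for 115 of all genes (0.891%) and 1 of the 30. That gene was Smad6, with a log2 difference of -0.42 (standard error 0.19, unadjusted p = 0.0458), and -0.27 without replicate 4 and -0.55 without replicate 2 of wild type with vehicle. Leaving out 1 library gave 47 to 206 genes, and 0 of the 30 in 10 of 16 such fits. The count of the 30 was also 0 under voom and with only the 2 groups compared. Its wild-type libraries with PD0325901 spanned 6.65 to 8.02 FPKM and overlapped the lower vehicle libraries. No gene of the 30 was free of overlap, against 0.659% of all genes. Inhba (-0.64, standard error 0.67) and Tgfb3 (-0.53, standard error 0.59) had larger but less precise estimates, which were -0.05 and -0.09 with the marker levels as terms. Without replicate 2 of wild type with PD0325901 they were -0.03 and -0.12, and without replicate 3 Inhba was at -1.22. The fit with marker levels gave 1081 of all genes and 3 of the 30 (Smad5, Acvr1 and Tgfb2, all with positive estimates) an unadjusted p under 0.05. In wild type with PD0325901 the contractile sum was 1205 to 1549 FPKM in replicates 1 and 2 and 8064 to 12301 in replicates 3 and 4. Its part in these estimates was not tested beyond that fit.

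In the knockout, PD0325901 against vehicle called none of the 30 (limma, background 0%), and voom called 0. An unadjusted p under 0.05 was found for 382 of all genes (2.96%) and 0 of the 30. No member was free of overlap, against 1.7% of all genes. The largest estimates were 0.68 for Inhba (standard error 0.67), 0.50 for Inha (0.47) and 0.49 for Bmp6 (0.64). Leaving out 1 library gave 0.43 to 0.97 for Inhba, 0.27 to 0.80 for Inha and 0.21 to 0.89 for Bmp6, each highest without replicate 4 of the knockout with vehicle. With the marker levels as terms they were 0.11, 0.11 and -0.07. Smad5 (-0.22, standard error 0.06) and Bmp7 (0.25, 0.10) were then the 2 of 30 at an unadjusted p under 0.05, with 849 of all genes. In the fit without those terms 1 library left out gave 192 to 705 genes and 0 to 1 of the 30. Tgfbr1 differed by -0.20 (standard error 0.12), and -0.08 without replicate 4 of the knockout with PD0325901. Smad6 differed by -0.17 (standard error 0.19), and -0.05 without replicate 4 of the knockout with vehicle.

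The interaction of genotype and inhibitor asked whether the inhibitor acted differently in the knockout. None of the 30 passed (limma, background 0%), 0 of the 30 and 1.71% of all genes had an unadjusted p under 0.05, and voom called 0. The largest values, 1.32 for Inhba, 0.95 for Tgfb3 and 0.92 for Inha, had standard errors of 0.95, 0.83 and 0.66, and became 0.16, 0.01 and 0.12 with the marker levels as terms. Without replicate 2 of wild type with PD0325901 they were 0.71, 0.54 and 0.61. The fit with marker levels gave 9.97% of all genes and 4 of the 30 an unadjusted p under 0.05, with a lowest adjusted p of 0.457 among the 30 (limma). Those 4 were Smad5 (-0.41, standard error 0.09), Tgfb2 (-0.45, 0.17), Acvr1 (-0.47, 0.19) and Bmp7 (0.33, 0.14). The median of the 30 was then -0.18, with 9 above 0 and 21 below, and that of all genes was -0.06.

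Averaged over both treatments, knockout against wild type called none (background 0%), and voom called 0. An unadjusted p under 0.05 was found for 561 of all genes (4.35%) and 3 of the 30. These were Smad6 at 0.41 (standard error 0.14, unadjusted p = 0.00961), Bmp7 at 0.25 (0.10) and Fst at 0.27 (0.12) (adjusted p = 0.998, limma). With 1 library left out, 291 to 768 genes and 2 to 5 of the 30 were at that p, and with the marker levels as terms 1440 genes and 6 of the 30 (lowest adjusted p of the 30 = 0.342). Averaged over both genotypes, PD0325901 against vehicle called none (background 0%), and voom called 0. At an unadjusted p under 0.05 were 1 of the 30, Smad6 at -0.30 (0.14), and 238 of all genes (1.84%). With 1 library left out these counts were 0 to 1 and 135 to 347, and 0 and 599 with the marker levels as terms. These averages reuse the libraries of the comparisons above and add no independent data.

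**Figure D3:**
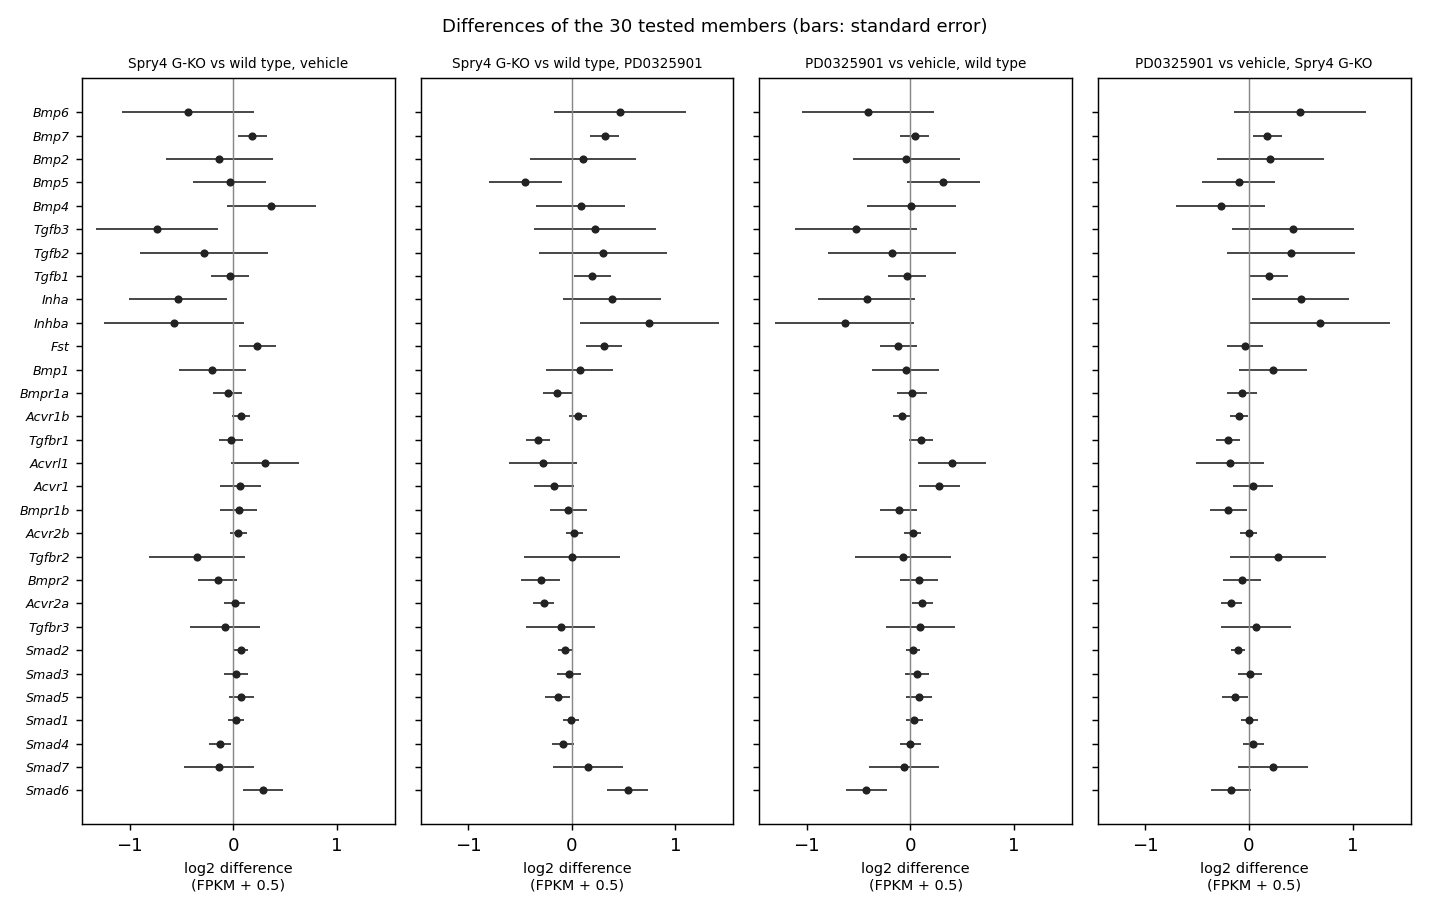
Log2 differences of FPKM + 0.5 with standard errors for the 30 tested genes in the 4 comparisons of groups, genes ordered by role. Bars of Acvr2b, Smad1 and Smad2 are short, and those of Inhba, Tgfb2, Tgfb3, Bmp6, Bmp2, Inha and Tgfbr2 reach 0.47 to 0.67. Smad6 stands at 0.54 between genotypes under PD0325901.

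Within groups, the libraries differed in their level of contractile markers, and the members were compared along it. In a limma model with 1 mean per group, a slope was fitted on the mean log2 level of the 11 contractile genes, which ran from 5.13 to 8.49. A slope of 1 means that a gene doubled whenever the contractile level doubled. Of the 30 genes, 16 rose with the contractile level, against 32.1% of all genes, and 2 fell, against 21.7%. Their median slope was 0.14, and that of all genes was 0.01.

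The genes that rose most were ligands and 1 receptor. Slopes were 0.94 for Inhba (standard error 0.06, adjusted p = 2.34e-08), 0.90 for Bmp6 (0.04, 6.18e-10), 0.87 for Tgfb2 (0.04, 6.18e-10) and 0.81 for Tgfb3 (0.07, 1.84e-07). Bmp2 followed at 0.67 (standard error 0.09), Inha at 0.64 (0.05) and Tgfbr2 at 0.64 (0.05). These 7 genes also had the widest spread within groups of the 30, and the slope took up most of it. The within-group standard deviation on the log2 scale went from 1.03 to 0.25 for Inhba, from 0.98 to 0.17 for Bmp6, and from 0.95 to 0.16 for Tgfb2.

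Smaller slopes passed the test for the inhibitory Smad7 (0.41, standard error 0.07), the protease gene Bmp1 (0.40, 0.06), the co-receptor Tgfbr3 (0.37, 0.08) and Bmp5 (0.30, 0.11). The receptors Acvr1 (0.21), Bmpr2 (0.18) and Bmpr1a (0.12), and Smad5 (0.15) and Smad4 (0.12), rose by less. By role, 3 of 5 BMP ligands, 2 of 3 TGF-beta ligands, both tested activin and inhibin subunits, 2 of 4 type 2 receptors, 2 of 6 type 1 receptors and 1 of 4 receptor SMADs rose. Bmp7 (-0.14, standard error 0.04) and the type 1 receptor Bmpr1b (-0.18, 0.05) fell with it. In the same fit the spermatogonial markers Sall4 (-0.13), Zbtb16 (-0.12) and Lin28a (-0.21) fell as well. They were picked from a list of 12 such markers after their values were seen, so they give no direction for the list.

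The other 12 tested genes did not pass the test of the slope. They held Smad1 (0.06, standard error 0.03), Smad2 (-0.05, 0.02), Smad3 (-0.0036, 0.04), Acvr1b (0.04, 0.03), Acvr2a (-0.02, 0.04), Acvr2b (-0.06, 0.03), Tgfbr1 (-0.03, 0.04) and Smad6 (0.04, 0.07). Smad2 was the steadiest of the 30, with a within-group standard deviation of 0.08, and 4.35% of all genes had a smaller one. Tgfb1 had a slope of 0.14 (standard error 0.06), Fst -0.13 (0.06) and Acvrl1 0.20 (0.11). Bmp4 varied nearly as widely as Tgfbr2 within groups but not along the contractile level. Its slope was -0.09 (standard error 0.16), and its within-group standard deviation was 0.66 without the slope and 0.68 with it.

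Library numbers in the column names run from 440 to 447 for replicates 1 and 2 of each group and from 448 to 455 for replicates 3 and 4, and the labels do not call these batches. All 18 slopes that passed had the same sign within each set of 8. The test was passed by 3 of them, Inhba, Bmp6 and Tgfb2, within 440 to 447, and by 12 within 448 to 455. When library medians were aligned, the slopes called over all genes moved from 4148 rising and 2804 falling to 3065 rising and 5135 falling. The 30 genes moved from 16 rising and 2 falling to 12 rising and 5 falling. All 18 kept their sign, and Bmpr1a, Smad4, Bmp5 and Bmpr2 no longer passed, while Fst, Smad2 and Acvr2b passed as falling. Without replicate 3 of wild type with PD0325901, the library with the highest contractile level, Bmp7, Bmpr1a, Bmp5 and Bmpr2 no longer passed, and 14 of the 30 did.

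**Figure D4:**
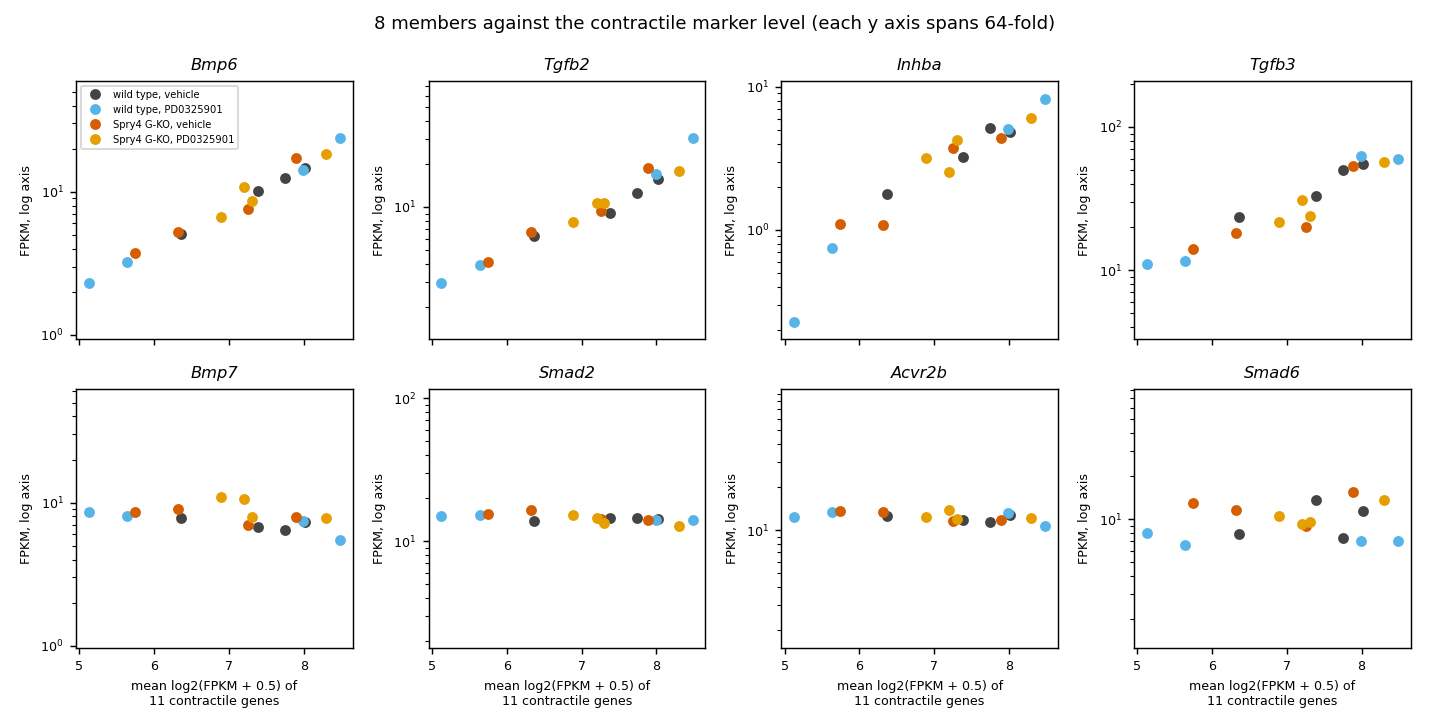
FPKM (log axis, each panel spanning 64-fold) of 8 genes against the mean log2 level of 11 contractile genes, 1 point per library and 1 colour per group. Bmp6, Tgfb2, Inhba and Tgfb3 climb with that level in all 4 groups, whereas Bmp7 declines with a slope of -0.14. Smad2, Acvr2b and Smad6 have slopes between -0.06 and 0.04, which did not pass the test.

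**Figure D5:**
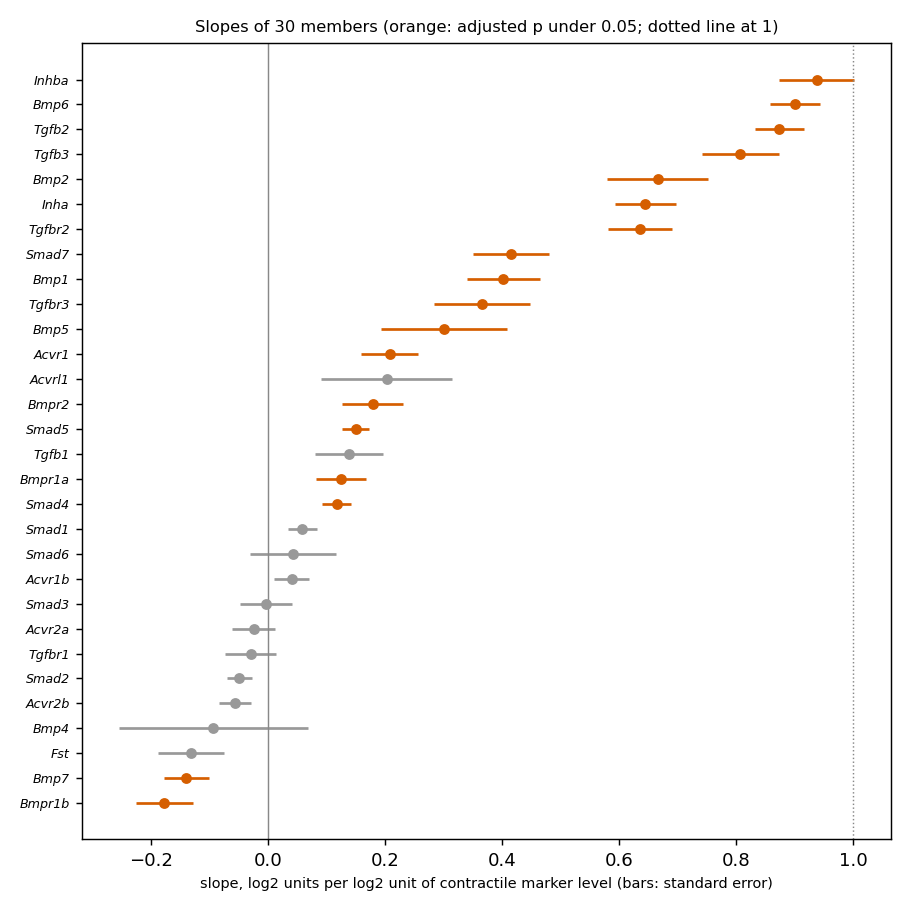
Slope of each tested gene on the contractile marker level, in log2 units per log2 unit, with standard errors; orange marks an adjusted p under 0.05. Inhba (0.94), Bmp6 (0.90), Tgfb2 (0.87) and Tgfb3 (0.81) lie nearest to the dotted line at 1, and Bmp7 and Bmpr1b lie below 0.

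The 250 bases before the RefSeq start are shown for Inhba, Tgfbr2 and Smad6 (RefSeq, build GRCm38.p6). Among genes with a slope of at least 0.6, only Inhba and Tgfbr2 had such a window free of annotated exons. Smad6, whose slope did not pass the test, was added by name. The windows lie at chr13:16011601-16011850 on the plus strand for Inhba, chr9:116175364-116175613 on the minus strand for Tgfbr2 and chr9:64022060-64022309 on the minus strand for Smad6, with no annotated exon inside. The windows are written 5′ to 3′ on the strand of the gene, and capitals mark CAGAC, the longer form of the SMAD-binding element.
Inhba: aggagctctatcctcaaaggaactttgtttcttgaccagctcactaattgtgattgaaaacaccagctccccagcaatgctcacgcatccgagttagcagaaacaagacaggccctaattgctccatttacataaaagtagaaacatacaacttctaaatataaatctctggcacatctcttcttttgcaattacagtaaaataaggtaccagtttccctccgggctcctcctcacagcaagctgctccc
Tgfbr2: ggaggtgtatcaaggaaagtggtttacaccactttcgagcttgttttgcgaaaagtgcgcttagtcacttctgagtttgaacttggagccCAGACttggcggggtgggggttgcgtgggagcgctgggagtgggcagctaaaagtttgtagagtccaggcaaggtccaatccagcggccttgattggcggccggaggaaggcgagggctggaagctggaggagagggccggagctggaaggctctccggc
Smad6: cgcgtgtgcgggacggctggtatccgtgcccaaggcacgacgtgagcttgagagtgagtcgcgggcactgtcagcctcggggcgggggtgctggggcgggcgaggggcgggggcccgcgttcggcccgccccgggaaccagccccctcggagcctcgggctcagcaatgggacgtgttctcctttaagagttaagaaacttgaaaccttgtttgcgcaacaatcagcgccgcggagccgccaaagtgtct

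RefSeq windows were found for 25 of the 38 genes, 30 windows in all, and 3 motifs were searched on both strands. CAGAC was in 13 of the 30 windows (43.3%), against 42.2% of 32851 windows of all genes, and the Tgfbr2 window held it once. GGCGCC, a GC-rich element bound by BMP SMADs, was in 6 of the 30 (20.0%), against 9.59% of all windows. The CArG box, the element bound by serum response factor at many contractile genes, was in 0 of the 30, against 1.47% of all windows. These counts describe letters in these windows only.

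Other genes of the pathway were taken from lists of further ligands, antagonists and latency proteins, intracellular regulators, and target genes, 107 symbols in all. Some genes were listed under more than 1 name, and Ltbp2 stood on 2 lists. Of these symbols 90 were in the table and 75 tested. None passed in any of the 7 comparisons of groups (limma and voom). Of the 75, the 2 with the largest estimates between genotypes under vehicle were Id1 and Id2, which encode inhibitors of DNA binding and are direct targets of BMP SMADs. Over the 11 tested SMAD1/5/9 targets 4 estimates were above 0 and 7 below, with a median of -0.11 and 0 called. All 3 further ligands were below 0, with a median of -0.51 and 0 called. The other lists lay near 0. Antagonists, co-receptors and latency proteins had 8 above and 11 below (median -0.03). Intracellular regulators had 18 above and 13 below (0.01), and SMAD2/3 targets 6 and 6 (-0.01). Over all 75 genes 36 were above 0 and 39 below, with a median of -0.006, and 47.2% of all genes were above 0. Id1 stood at 14.8, 26.8, 35.9 and 27.7 FPKM in wild type with vehicle, 11.7, 15.1, 35.6 and 21.9 in wild type with PD0325901, 10.6, 6.31, 6.13 and 24.9 in Spry4 G-KO with vehicle, and 21.2, 13.6, 20.4 and 36.6 in Spry4 G-KO with PD0325901. Replicates 1 to 3 of the knockout with vehicle were below every other library, and replicate 4 was within the range of the others. The log2 difference between genotypes under vehicle was -1.27 for Id1 (standard error 0.45, unadjusted p = 0.0130) and -1.11 for Id2 (0.59). PD0325901 against vehicle in the knockout gave 1.06 for Id1 (standard error 0.45). Id1 and Id2 also rose with the contractile level, with slopes of 0.55 (standard error 0.09) and 0.80 (0.07), and the knockout with vehicle held 2 of the 5 libraries with the lowest contractile level. With the contractile and spermatid levels as terms, the difference under vehicle was -0.96 for Id1 (standard error 0.24) and -0.62 for Id2 (0.18), neither passing (adjusted p = 0.989, limma). The Id1 value in the knockout for PD0325901 against vehicle was then 0.72 (standard error 0.24). Leaving out 1 library gave -1.69 to -1.04 for Id1 and -1.48 to -0.80 for Id2 under vehicle, both most negative without replicate 4 and least without replicate 3 of the knockout.

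Along the contractile level 37 of the 75 pathway genes rose and 3 fell. Of all genes 32.1% rose and 21.7% fell, which is the background for each list below. Of antagonists, co-receptors and latency proteins, 13 of 19 rose, among them the BMP antagonist Nbl1 (slope 0.77, standard error 0.08) and Lrrc32, which tethers latent TGF-beta (0.74, 0.07). Of further ligands 2 of 3 rose, Gdf11 (0.71, 0.06) and Gdf15 (0.71, 0.09). Of 31 intracellular regulators 12 rose and 2 fell, of 11 SMAD1/5/9 targets 5 rose and 1 fell, and of 12 SMAD2/3 targets 6 rose.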

How the data were processed

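Poly(A) RNA of sorted spermatogonia was sequenced after stranded library preparation, per the labels' protocols. The authors deposited FPKM values, 1 column per library, and all 16 columns were matched to samples through the names that the labels give. The tools FastQC, STAR 2.7.10a and edgeR 4.0.14, and the builds mm10 and GRCm39, are named per the submitters' processing notes, without their roles. The sources used here give no counter, gene lengths or scaling between libraries.

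From the deposited FPKM values, log2(FPKM + 0.5) was computed for the 12907 of 16383 genes with at least 1 FPKM in at least 4 libraries. It was fitted with limma 3.58.1 (R 4.3.3), with 1 mean per group over all 16 libraries and a variance trend. P-values were adjusted by Benjamini-Hochberg over all tested genes. Whole-read steps in low values gave library divisors of 23358957 to 36612259. With these, 92.9% to 94.3% of the values below 100 reads were within 0.1 of a whole number. Limma voom was run on these recovered reads, as an alternative added after the data were seen. In these libraries 1 FPKM stands for 23.4 to 36.6 reads per kilobase, and Smad6 rested on 556 to 1603 reads. The scripts were tested on simulated data. Python 3.11.15, pandas 2.3.3 and matplotlib 3.10.9 were used for tables and figures. Promoter windows came from RefSeq (GRCm38.p6).

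The members, gene lists and tests were chosen with earlier results of these data known. By rule, members named with values had a mean of at least 5 FPKM, were among the 3 largest differences of a comparison, or were Bmp4, Bmpr1a, Acvr2b, Inha, Inhba, Inhbb, Smad7 and Tgfb1 whatever their values. Other members named were picked after their values were seen. Named pathway genes had the 2 largest differences of a comparison, or the largest slopes among those that passed. Alternatives were another pseudocount, filter, scaling, covariates, a replicate block, subsets of libraries and leaving out each library.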

Additional observations from a re-analysis of the deposited data

Results flagged for a closer look

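Among 104 sets of 4 replicates examined for the 26 named members, 6 had a library whose gap to the nearest other exceeded Dixon's critical share of the whole range for 4 samples. Chance gives such a gap in about 1 in 20 sets. In Spry4 G-KO with vehicle, replicate 4 stood apart for Tgfb3 at 53.3 FPKM and for Smad7 at 27.8 FPKM, and it had the highest contractile level of its group. In Spry4 G-KO with PD0325901, Tgfb1 stood apart in replicate 4 at 9.81 FPKM, Fst in replicate 2 at 12.1 FPKM and Smad1 in replicate 1 at 5.47 FPKM. In wild type with vehicle, Acvr1 stood apart in replicate 4 at 2.34 FPKM. The cause of each was not tested.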

How the results depend on the processing

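In the 7 comparisons of groups, 0 members and 0 genes were called under every alternative run, 358 counts in all, so no call depended on a setting, whereas the counts at an unadjusted p under 0.05 did. Of 4440 values of single named members under alternatives, 4432 shifted by less than the within-group standard deviation of the gene. That bound is wide for variable genes (1.03 for Inhba), so staying within it does not show a stable estimate. Inhba between genotypes under PD0325901 ran from 0.14 to 1.34 with 1 library left out and stayed within it. The 8 that moved were interaction values with the contractile and spermatid levels as terms. For the contractile slope, the reported fit called 53.9% of genes and 18 members. With only genes of mean FPKM of at least 5 it called 55.5% of them and 11 members, where fewer genes are tested. Within libraries 440 to 447 it called 1.67% and 3 members, and within 448 to 455 it called 27.6%, both with 8 libraries in place of 16. Leaving out 1 library gave 41.8% to 53.8% of genes and 14 to 20 members. The replicate block left 0 calls in each comparison of groups and gave 45.4% of genes and 17 members for the slope. Replicate numbers did not pair the samples: 10 of 24 same-numbered pairs had deviations correlated above 0.1 (range -0.53 to 0.73), and 5 of 16 libraries correlated best with their own number. Of 645 slope values of named members under alternatives, 607 kept their side of the threshold, 26 lost it and 12 gained it. None that passed in either fit changed sign. Slopes that passed in neither fit could change sign, such as that of Smad6, from 0.04 to -0.19 within libraries 440 to 447. Depth limits the 8 members under 1 FPKM, and Lefty1 rested on as few as 4 reads.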
